A study of Homo sapiens with 12 samples.

Results

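Genes for 9 immune checkpoint ligands and their partners were followed in MDA-MB-231 cells, a human triple-negative breast cancer line, after treatment with a BET bromodomain inhibitor, with cardamonin, or with both. The genes were CD274, which encodes PD-L1, PDCD1LG2, which encodes PD-L2, CMTM6, CD276, PVR, NECTIN2, LGALS9, CD47 and NT5E. They were taken by their symbols, and all 9 were found among the 16384 genes listed in the count tables and among the 12645 genes tested. The study held 12 RNA libraries, 3 for each of 4 groups. Cells of the Combination group received CAR at 10 µmol/L together with JQ1 at 25 µmol/L, cells of the JQ1 group received JQ1 alone at 25 µmol/L, cells of the CAR group received CAR alone at 10 µmol/L, and DMSO cells were the control. JQ1 is an inhibitor of the BET proteins, which read acetylated histones, and CAR is taken here for the cardamonin of the series title, a plant chalcone. Every group was the same line with its genotype given as WT, no time of treatment was stated, and RNA from tumour cells in culture says nothing of the lymphocytes or macrophages that would meet these ligands.

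Immune checkpoint ligands are surface or secreted proteins through which a tumour cell restrains immune cells. PD-L1 and PD-L2 engage PD-1 on T cells, PVR and NECTIN2 engage the inhibitory receptor TIGIT and the activating receptor CD226, and CD47 engages SIRPα on macrophages as a signal against phagocytosis. CD73, the product of NT5E, works differently: it makes extracellular adenosine from AMP, and adenosine restrains T cells and natural killer cells. CD274 is known as an interferon-inducible gene, with IRF1 among its transcription factors.

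Start-site sequences are shown for CD274 and NT5E, which fell under JQ1, and for CD47, which rose, so that the letters around their starts can be set side by side. Each runs 5′ to 3′ on the gene's own strand, from 250 bases before the annotated start to 50 bases after it, from RefSeq on GRCh38.p14, and 8 of the 9 genes matched an entry. Capitals in CD274 (chr9:5450292-5450591, plus strand) mark a pair of overlapping matches on the opposite strand to the IRF motif, which is GAAA, any 2 bases and GAAA again, and then a match to the STAT motif TTCNNNGAA. Capitals in NT5E (chr6:85449833-85450132, plus strand) and in CD47 (chr3:108090982-108091281, minus strand) mark a match to the antioxidant response element letters TGACNNNGC, the CD47 match being on the opposite strand.
CD274: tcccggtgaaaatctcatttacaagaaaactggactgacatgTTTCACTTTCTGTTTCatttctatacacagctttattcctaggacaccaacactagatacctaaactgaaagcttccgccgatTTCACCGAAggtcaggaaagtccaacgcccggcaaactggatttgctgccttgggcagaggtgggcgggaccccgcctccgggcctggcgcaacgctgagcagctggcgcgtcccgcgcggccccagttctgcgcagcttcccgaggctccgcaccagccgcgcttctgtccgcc
NT5E: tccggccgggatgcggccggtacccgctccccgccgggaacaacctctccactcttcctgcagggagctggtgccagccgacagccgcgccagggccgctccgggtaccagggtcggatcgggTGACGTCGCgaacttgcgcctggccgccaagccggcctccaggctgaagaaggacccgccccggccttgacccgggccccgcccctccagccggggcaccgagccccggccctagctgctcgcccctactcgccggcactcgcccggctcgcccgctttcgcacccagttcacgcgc
CD47: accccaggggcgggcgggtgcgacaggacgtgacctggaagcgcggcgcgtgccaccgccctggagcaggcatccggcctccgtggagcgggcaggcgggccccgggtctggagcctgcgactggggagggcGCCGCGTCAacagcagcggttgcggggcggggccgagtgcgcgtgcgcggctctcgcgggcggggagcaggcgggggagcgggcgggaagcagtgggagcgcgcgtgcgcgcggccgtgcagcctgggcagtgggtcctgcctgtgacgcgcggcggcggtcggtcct

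With the first base of the gene's start as position 0, the IRF matches in CD274 began at positions -208 and -202 and the STAT match at -125. Of 35116 RefSeq promoters of the same length, searched on both strands, 3.57% held the IRF letters, 7.66% the STAT letters and 13.3% the antioxidant response letters. The antioxidant response matches began at -127 in NT5E and -118 in CD47, and further ones at -76 in NECTIN2 and -22 in CMTM6, while LGALS9 held an IRF match at -9. One of the 2 CD276 promoters held an NF-kB match at -68, a motif found in 11.3% of promoters, and PVR held none of the motifs searched. The AP-1 letters TGANTCA, the E-box CACGTG and the TATA box TATAAA had no match in any of the 8 genes. CD274 had 57.3% G and C in this window, close to the median of 58.7% over all promoters, and NT5E, CD47 and the first CD276 promoter had 75.0%, 79.0% and 80.3%. The LGALS9 window stood apart with 2 CpG sites, against a median of 14, and CD47 had 45. These are matches of letters and not sites of binding.

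The libraries held 17449715 to 19754456 counted reads each, and levels are given in CPM, the reads of a gene relative to the library's total as scaled by the trimmed mean of M-values (TMM). Differences were tested with edgeR's quasi-likelihood test over all 12645 genes and called at an adjusted p under 0.05; nothing says that replicates were separate cultures, so these p-values measure a spread that may be technical. Most genes passed the test against DMSO in both groups given JQ1. In all, 42.6% of genes were higher and 42.8% lower in Combination, 41.5% higher and 42.2% lower in JQ1, and 27.3% higher and 30.1% lower in CAR, each against DMSO. DMSO replicate 3 stood apart from its group: its deviations followed transcript length with a Spearman rho of -0.726 across 6056 genes, against 0.609 and 0.634 in the other DMSO libraries and between -0.265 and 0.26 in the other 9. Combination replicate 1 held 1429 reads of ALB, a liver transcript, against 4 to 10 in each other library. Other liver transcripts were raised there too, such as APOB with 480 reads against 0 to 3. The 13 liver markers summed to 179 CPM in that library, against 1.34 to 3.67 CPM in the others. Of 7 markers expected low or absent in this line, ESR1, PGR, CDH1 and FOXA1 had 0 to 13 reads per library, while ERBB2 had 1858 to 2764, EPCAM 43 to 337 and GATA3 21 to 157. The 6 markers expected present summed to 3160 to 3370 CPM in Combination, 3600 to 3630 in JQ1, 6630 to 6680 in CAR and 6550 to 6680 in DMSO libraries. Leukocytes were near absent, with PTPRC at 0 or 1 read and CD3D at 0 to 2, although CD8A had 17 to 24 reads in Combination, 12 to 20 in JQ1, 123 to 149 in CAR and 140 to 152 in DMSO libraries. Of 13 leukocyte markers 9 were listed, and their summed level was 2.07 to 2.4 CPM in Combination, 1.71 to 2.04 in JQ1, 7.7 to 8.89 in CAR and 10.2 to 11.1 in DMSO libraries. The 7 fibroblast markers summed to 43.1 to 43.8 CPM in Combination, 100 in JQ1, 18.6 to 21.3 in CAR and 38.1 to 40.1 in DMSO libraries, for the most part from PDGFRB. In bulk RNA, fewer cells of a type and less RNA per cell cannot be told apart.

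The PD-1 ligand genes both fell in the groups that received JQ1, and neither passed the test under CAR alone. CD274 (chromosome 9, 5450503 to 5470566, plus strand, GENCODE v29 on GRCh38) had 6.14, 6.8 and 6.44 CPM in Combination libraries and 7.36, 5.08 and 5.53 CPM in JQ1 libraries, from 92 to 138 reads each. It had 13.6, 14.8 and 13.7 CPM in CAR libraries and 13.3, 14.6 and 13.3 CPM in DMSO libraries, from 264 to 288 reads each. Every library given JQ1 lay below every library without it, and the CAR and DMSO libraries overlapped. The level was 2.12-fold lower in Combination than in DMSO (log2 fold change -1.08 ± 0.11 SE, adjusted p = 3.85e-09) and 2.28-fold lower in JQ1 than in DMSO (-1.19 ± 0.11, adjusted p = 9.1e-10). Under CAR the difference was 0.03 ± 0.09, with a 95% interval from -0.16 to 0.22. Combination and JQ1 differed by 0.1 ± 0.12 (95% interval -0.15 to 0.36), which did not pass the test. A difference of any size within that interval remains possible. A change of the size of CD274 under JQ1 was larger than that of 76.1% of genes tested.

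PDCD1LG2 (chromosome 9, 5510570 to 5571254, plus strand) was a low transcript that came close to the counting floor under JQ1. Combination libraries held 0, 0 and 2 reads, JQ1 libraries 2, 1 and 1, CAR libraries 46, 35 and 59, and DMSO libraries 53, 53 and 48. These corresponded to 0.039 ± 0.0676 CPM in Combination, 0.0734 ± 0.0289 CPM in JQ1, 2.38 ± 0.643 CPM in CAR and 2.59 ± 0.236 CPM in DMSO (SD, n = 3 each). The floor of 3 reads corresponded to 0.147 to 0.177 CPM, so every library given JQ1 lay under it. Summed over libraries, 2 reads in Combination against 154 in DMSO gave a 66.2-fold lower level, with an exact 95% counting interval from 18 to 552. The 4 reads in JQ1 against 154 in DMSO gave a 34.9-fold lower level, with an interval from 13.4 to 130. The quasi-likelihood test called both differences (adjusted p = 2.72e-10 for Combination and 4.14e-10 for JQ1). CAR libraries were 1.09-fold lower than DMSO by the same ratio (interval 0.86 to 1.38, adjusted p = 0.638). The gene passed the filter on low counts through the CAR and DMSO groups alone, where it was high, so its call says no more than its reads do. CD8A and CSF1R, the leukocyte-list transcripts with the most reads in DMSO libraries, were also lower in the groups given JQ1, CSF1R with 0 or 1 read in Combination, 2 or 3 in JQ1, 18 to 24 in CAR and 45 to 52 in DMSO libraries. Their part in this result was not tested; PTPRC and CD3D were at or near 0 in every library.

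CMTM6 (chromosome 3, 32481312 to 32503408, minus strand), a membrane protein that binds PD-L1 and keeps it from lysosomal degradation, did not follow CD274. It had 137.3, 128.6 and 125.2 CPM in Combination libraries, 175.9, 176.7 and 168.0 CPM in JQ1 libraries, 130.4, 129.2 and 143.3 CPM in CAR libraries, and 134.6, 135.6 and 138.4 CPM in DMSO libraries. The JQ1 libraries lay above all others, and the remaining groups overlapped. CMTM6 was 1.27-fold higher in JQ1 than in DMSO (log2 0.35 ± 0.04, adjusted p = 2.48e-07), and 1.33-fold lower in Combination than in JQ1 (-0.41 ± 0.05, adjusted p = 1.39e-07). Combination and DMSO differed by -0.06 ± 0.05 (95% interval -0.16 to 0.03), and CAR and DMSO by -0.02 ± 0.05 (-0.11 to 0.07). With total counts in place of TMM, CMTM6 was called lower in Combination than in DMSO (-0.27, adjusted p = 1.2e-05), and with upper-quartile scaling too (-0.14, adjusted p = 0.00965). CMTM6 shares 324 exonic bases, 7.34% of its exons, with CMTM7 on the opposite strand. Whether the counting used strand is not given, and CMTM7 fell in JQ1 (-0.65 ± 0.06, adjusted p = 7.02e-10) while CMTM6 rose. CMTM4, a relative of CMTM6 that also stabilises PD-L1, was at 45.7 ± 1.32 CPM in Combination, 55.3 ± 0.183 in JQ1 and 64.8 ± 5.51 in DMSO, a fall in both (adjusted p = 2.38e-08 and 0.000583).

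**Figure D1:**
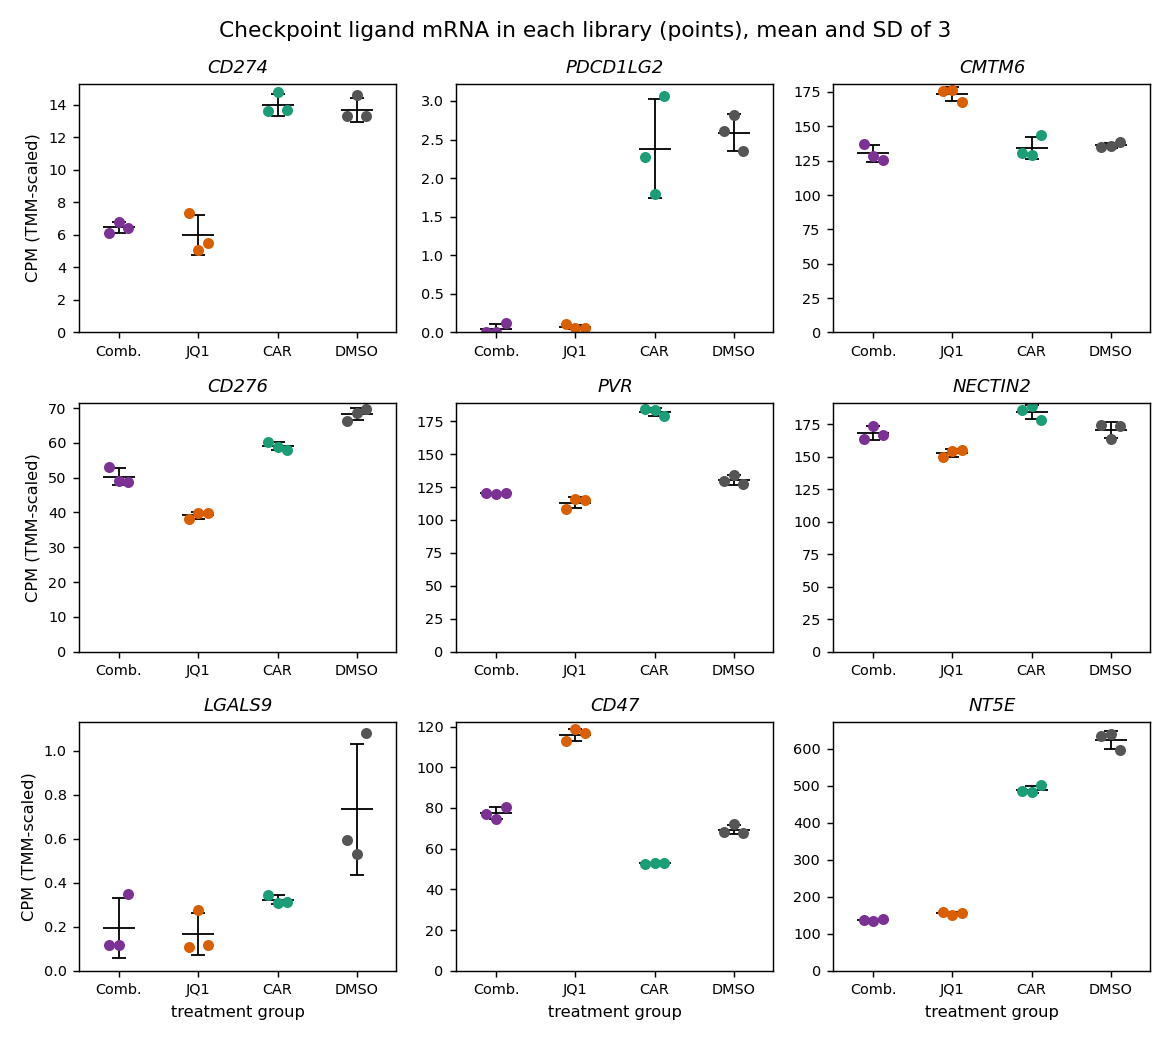
Level of each of the 9 genes, one panel per gene, in TMM-scaled CPM on a linear axis from 0. Points are single libraries, and the bar and whiskers are the mean and SD of the 3 libraries of a group. CD274, PDCD1LG2 and NT5E are low in both groups given JQ1, while CMTM6 and CD47 are highest in JQ1 alone and PVR in CAR alone.

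CD276 (chromosome 15, 73683966 to 73714518, plus strand), which encodes the B7 family member B7-H3, fell under every treatment. It had 53.0, 49.1 and 48.7 CPM in Combination libraries, 38.0, 39.8 and 39.8 in JQ1 libraries, 60.2, 58.7 and 58.0 in CAR libraries, and 66.2, 68.7 and 69.6 in DMSO libraries. No 2 groups overlapped. The fall against DMSO was 1.36-fold in Combination (log2 -0.44 ± 0.05, adjusted p = 1.61e-08), 1.74-fold in JQ1 (-0.8 ± 0.05, adjusted p = 9.26e-13) and 1.16-fold in CAR (-0.21 ± 0.05, adjusted p = 0.000547). Combination lay between the single agents, 1.28-fold above JQ1 (0.36 ± 0.05, adjusted p = 4.26e-06) and 1.17-fold below CAR (-0.23 ± 0.05, adjusted p = 0.000139).

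The TIGIT ligand genes PVR and NECTIN2, both on chromosome 19, were lower in JQ1 and higher in CAR than in DMSO. PVR (44643798 to 44663583, plus strand) encodes CD155. It had 120.4, 120.0 and 120.7 CPM in Combination libraries, 108.2, 116.0 and 115.1 in JQ1 libraries, 184.5, 183.2 and 178.7 in CAR libraries, and 129.7, 134.2 and 127.2 in DMSO libraries. The CAR libraries lay far above all others, 1.4-fold over DMSO (log2 0.48 ± 0.04, adjusted p = 9.32e-10). PVR was 1.08-fold lower in Combination than in DMSO (-0.12 ± 0.04, adjusted p = 0.00982), a call that a correction for transcript length ended (-0.06, adjusted p = 0.115), and 1.15-fold lower in JQ1 (-0.21 ± 0.04, adjusted p = 5.62e-05). Combination was 1.51-fold below CAR (-0.6 ± 0.04, adjusted p = 2.56e-12). Combination and JQ1 differed by 0.09 ± 0.04 (adjusted p = 0.0637), which passed once DMSO replicate 3 was left out (adjusted p = 0.018), with the groups compared alone (0.0305) and with the length correction (0.0438). PVR shares 121 exonic bases, 3.44% of its exons, with CEACAM19 on the same strand.

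NECTIN2 (44846175 to 44889228, plus strand) encodes CD112. It had 163.7, 174.0 and 166.4 CPM in Combination libraries, 149.5, 154.1 and 154.9 in JQ1 libraries, 185.8, 188.7 and 178.6 in CAR libraries, and 174.2, 163.7 and 173.6 in DMSO libraries. JQ1 libraries were the lowest and CAR libraries the highest, with Combination and DMSO overlapping. The difference from DMSO was -0.02 ± 0.04 in Combination (95% interval -0.1 to 0.06; called lower with total counts, -0.23, adjusted p = 1.52e-05, and with upper-quartile scaling, -0.09, adjusted p = 0.0368), -0.16 ± 0.04 in JQ1 (adjusted p = 0.000936) and 0.11 ± 0.04 in CAR (adjusted p = 0.0182). The JQ1 call ended with a correction for transcript length (-0.05, adjusted p = 0.167). The CAR call ended with total counts (0.05, adjusted p = 0.305), with upper-quartile scaling (0.08, adjusted p = 0.0899), and on leaving out DMSO replicate 2 (adjusted p = 0.0922), CAR replicate 1 (0.0512) or CAR replicate 2 (0.0792). NECTIN2 was 1.1-fold above JQ1 in Combination (0.14 ± 0.04, adjusted p = 0.00655; not called with total counts, 0.05, adjusted p = 0.311) and 1.1-fold below CAR (-0.13 ± 0.04, adjusted p = 0.00357; not called with the length correction, -0.03, adjusted p = 0.445).

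LGALS9 (chromosome 17, 27629798 to 27649560, plus strand), which encodes galectin-9, a ligand of TIM-3, was barely detected in these cells. Combination libraries held 2, 2 and 6 reads, JQ1 libraries 2, 5 and 2, CAR libraries 7, 6 and 6, and DMSO libraries 12, 10 and 22. DMSO replicate 3 had as many reads as the other DMSO libraries together, and every DMSO library lay above every treated one. By summed reads the level was 3.78-fold lower in Combination than in DMSO (exact 95% interval 1.88 to 8.43), 4.44-fold lower in JQ1 (2.14 to 10.3) and 2.29-fold lower in CAR (1.31 to 4.15). The test called all 3 (adjusted p = 0.000881, 0.000379 and 0.0167), but the CAR call was lost without DMSO replicate 3 (log2 -0.79, adjusted p = 0.151) and with DESeq2 (-1.19, adjusted p = 0.0718). The gene passed the filter through the DMSO group, where it was high, and it was not tested when at least 1 CPM in 3 libraries was required. Its near-identical copies LGALS9B and LGALS9C had 12 and 3 reads in all, so reads may have been split or dropped among them and the values are uncertain.

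CD47 (chromosome 3, 108043094 to 108091862, minus strand) moved in opposite directions under the single agents, up in JQ1 and down in CAR. It had 77.0, 74.8 and 80.4 CPM in Combination libraries, 112.8, 118.6 and 116.7 in JQ1 libraries, 52.5, 52.9 and 52.7 in CAR libraries, and 68.2, 72.0 and 67.8 in DMSO libraries. No groups overlapped. CD47 was 1.67-fold higher in JQ1 than in DMSO (log2 0.74 ± 0.04, adjusted p = 3.4e-13) and 1.32-fold lower in CAR than in DMSO (-0.4 ± 0.04, adjusted p = 1.92e-07). In Combination it was 1.5-fold below JQ1 (-0.58 ± 0.04, adjusted p = 2.92e-10), 1.47-fold above CAR (0.56 ± 0.05, adjusted p = 1.32e-10) and 1.12-fold above DMSO (0.16 ± 0.04, adjusted p = 0.00207). The last of these was not stable to scaling: it turned to -0.05 with total counts (adjusted p = 0.322) and was 0.09 with upper-quartile scaling (adjusted p = 0.0661).

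NT5E (chromosome 6, 85449584 to 85495791, plus strand), the gene of CD73, had the highest level per length of the 9 in DMSO cells and fell in every treated group. It had 135.8, 135.6 and 140.2 CPM in Combination libraries, 159.8, 150.2 and 155.2 in JQ1 libraries, 484.6, 482.8 and 501.5 in CAR libraries, and 635.3, 638.6 and 596.3 in DMSO libraries. No groups overlapped, and the order Combination, JQ1, CAR, DMSO ran from the lowest to the highest. NT5E was 4.54-fold lower in Combination than in DMSO (log2 -2.18 ± 0.04, adjusted p = 1.07e-21), 4.02-fold lower in JQ1 (-2.01 ± 0.04, adjusted p = 3.77e-21) and 1.27-fold lower in CAR (-0.35 ± 0.04, adjusted p = 7.19e-08). Combination was also 1.13-fold below JQ1 (-0.18 ± 0.04, adjusted p = 0.000815). Among all genes tested, 89.5% moved by less than NT5E under JQ1.

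**Figure D2:**
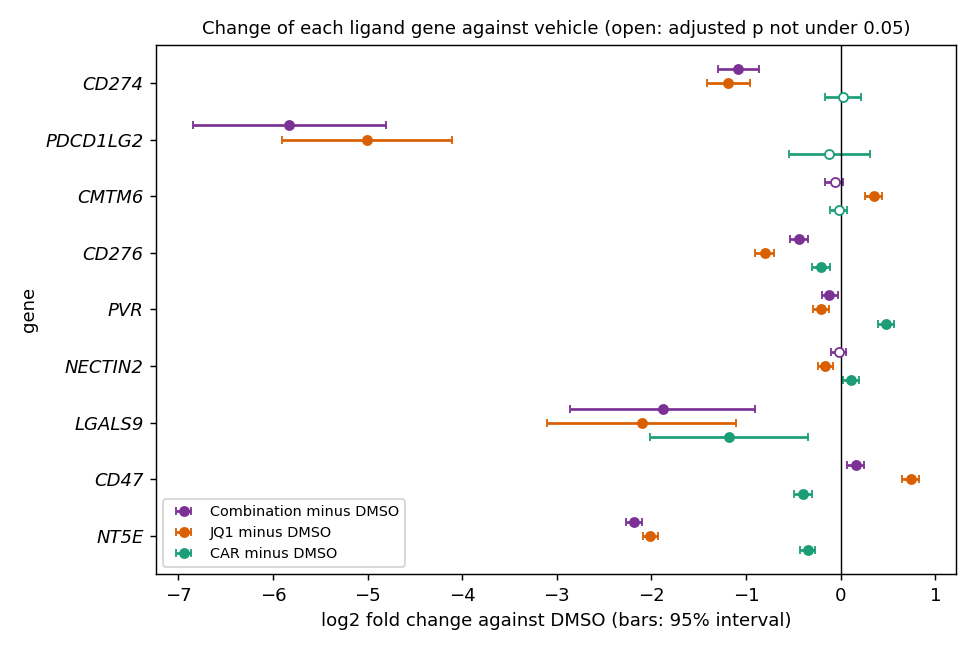
Log2 fold change of each gene against DMSO in Combination, JQ1 and CAR, with 95% intervals from the quasi-likelihood fit. Filled points passed the adjusted p threshold of 0.05 and open points did not. NT5E, CD274 and PDCD1LG2 lie well to the left in both groups given JQ1, and CD47 lies to the right in JQ1 and to the left in CAR.

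Counted over the 9 genes, 1 was higher and 6 were lower in Combination than in DMSO, 2 were higher and 7 lower in JQ1, and 2 were higher and 4 lower in CAR. The median log2 fold change of the 9 was -0.44, -0.8 and -0.12 in these comparisons, against medians over all genes of 0, -0.01 and -0.02. Over all genes 42.6% were higher and 42.8% lower in Combination, 41.5% and 42.2% in JQ1, and 27.3% and 30.1% in CAR, and the counts describe these 9 genes and no more. These comparisons share their DMSO libraries, so their values for a gene are not independent. The genes counted as lower include PDCD1LG2 in Combination and JQ1, and LGALS9 in Combination, JQ1 and CAR. Both passed the filter on low counts only through groups where they were high, and both enter the medians. Without DMSO replicate 3 and Combination replicate 1, a setting chosen after the data were seen, the counts were 1 higher and 7 lower, 2 higher and 7 lower, and 2 higher and 3 lower. With total counts or upper-quartile scaling in place of TMM, Combination had 0 higher and 8 lower, JQ1 2 higher and 7 lower, and CAR 1 higher and 4 lower than DMSO. Against JQ1, Combination had 2 of the 9 genes higher and 3 lower, where 26% and 25.9% of all genes were called. Against CAR it had 1 higher and 6 lower, where 42.4% and 43% were called.

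Whether the agents added up was tested as an interaction, the log2 effect of CAR in the presence of JQ1 minus its effect without. Of all genes, 20.1% had a positive and 18.2% a negative interaction that passed the test. Among the 9 genes, 2 were positive, 3 negative and 4 not called. CD276 had the larger of the 2 positive values that passed, 0.57 ± 0.07 (adjusted p = 1.58e-06): the single effects summed to -1.01 and the combination gave -0.44. PVR was at -0.39 ± 0.06 (adjusted p = 1.09e-05), with a sum of 0.28 against -0.12 observed. The difference that went with CAR was 0.48 without JQ1 and 0.09 with it (95% interval 0.01 to 0.17, adjusted p = 0.0637). CMTM6 was also at -0.39 ± 0.06 (adjusted p = 5.74e-05), with a sum of 0.33 against -0.06. CD47 at -0.19 ± 0.06 (adjusted p = 0.0205) and NT5E at 0.17 ± 0.05 (adjusted p = 0.0162) passed by less. Both lost the call without JQ1 replicate 2 (adjusted p = 0.0546 for CD47 and 0.0597 for NT5E), CD47 also without Combination replicate 2 (0.062) and NT5E without Combination replicate 3 (0.0532). For CD274 the single effects summed to -1.15 and the combination gave -1.08, an interaction of 0.07 with a 95% interval from -0.25 to 0.39. NECTIN2 stood at 0.02 (interval -0.09 to 0.14), and the low counts left PDCD1LG2 between -3 and 1.61 and LGALS9 between -0.25 and 3.05.

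**Figure D3:**
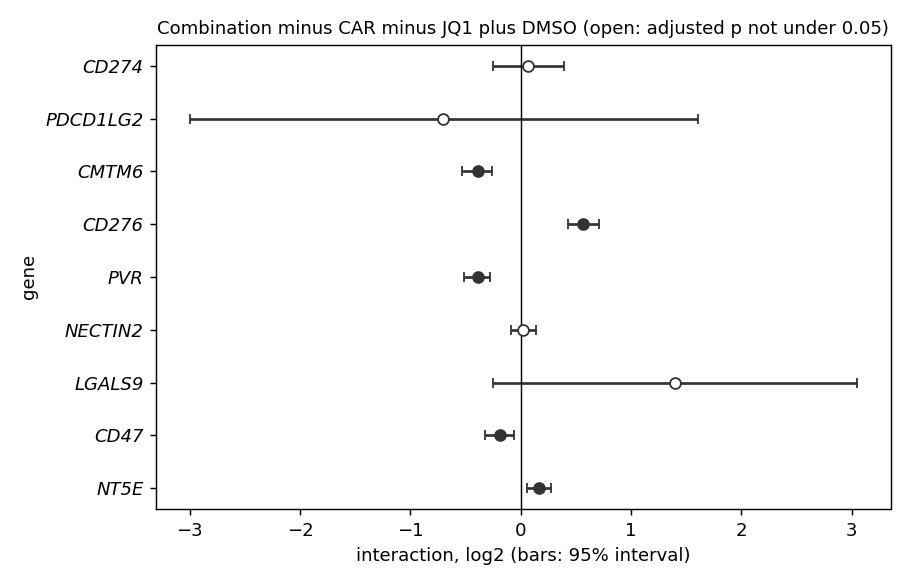
Interaction on the log2 scale for each gene, computed as Combination minus CAR minus JQ1 plus DMSO, with 95% intervals. Filled points passed the adjusted p threshold of 0.05. CD276 and NT5E lie above 0, CMTM6, PVR and CD47 below it, and the intervals of PDCD1LG2 and LGALS9 are wide.

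Levels of different genes were set side by side per kilobase of the longest annotated transcript. In DMSO cells NT5E stood first at 159.1 ± 6.01 CPM per kb, above 97.9% of the 12379 tested genes with a length. It was followed by NECTIN2 (69.1 ± 2.39), PVR (39.2), CMTM6 (35.3), CD276 (19.7), CD47 (10.2), CD274 (3.76), PDCD1LG2 (1.1) and LGALS9 (0.235), and no neighbours in this order overlapped. CD274 lay above 31.2% of tested genes and PDCD1LG2 above 14.8%. In Combination cells the order began with NECTIN2 at 68.1 ± 2.16 CPM per kb, then PVR at 36.2, NT5E at 35.0 and CMTM6 at 33.7, and NT5E and CMTM6 overlapped. In JQ1 cells it began with NECTIN2 at 62.0 and CMTM6 at 44.9, ahead of NT5E at 39.6. NT5E made up 17.4% of the summed per-kilobase level of the 9 genes in Combination, 18.8% in JQ1, 39.2% in CAR and 47.1% in DMSO. The sum was 200.8, 210.6, 319.0 and 337.7 CPM per kb in the same groups, and the share of NECTIN2 was 33.9%, 29.4%, 23.4% and 20.5%. With the union of exons as the length, the DMSO order was unchanged for all 9 genes, while PVR and NECTIN2 changed places in CAR, LGALS9 and PDCD1LG2 in JQ1, and CD276 and CD47 in Combination.

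**Figure D4:**
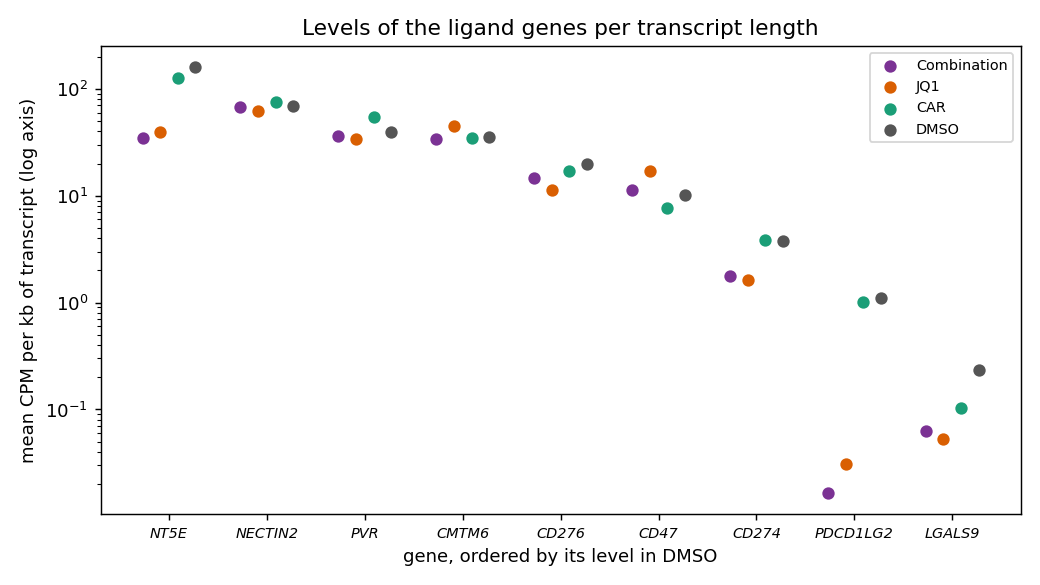
Mean level of each gene per kilobase of transcript, on a log axis, in Combination, JQ1, CAR and DMSO. Genes stand in the order of their DMSO levels, and each point is the mean of 3 libraries. The members span from 159.1 CPM per kb for NT5E to 0.235 for LGALS9 in DMSO cells.

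CD274 and PDCD1LG2 lie 40003 bases apart, and neither of the tested genes on either side was called lower in the groups given JQ1. PLGRKT, 12624 bases before CD274, had 4.78 ± 0.908 CPM in Combination, 4.36 ± 0.37 in JQ1 and 4.91 ± 0.514 in DMSO, with no call in either comparison (log2 -0.04, adjusted p = 0.803, and -0.18, adjusted p = 0.262). RIC1, 57770 bases after PDCD1LG2, rose 2.3-fold in Combination and 2.35-fold in JQ1 (61.8 ± 2.44 and 63.1 ± 2.18 CPM, against 26.9 ± 2.58 in DMSO, adjusted p = 9.14e-14 and 5.93e-14). At NT5E, SNX14 begins 9704 bases beyond the gene's end and rose by 0.32 on the log2 scale in JQ1 (adjusted p = 1.96e-07), where NT5E fell. IFT57, 68949 bases from CD47, rose under JQ1 by 0.74 ± 0.07 on the log2 scale (adjusted p = 8.55e-10), and was at 0.64 in Combination; CD47 was at 0.74 in JQ1 and 0.16 in Combination. IFT57 did not pass the test under CAR (0.1 ± 0.07, adjusted p = 0.204). BBX, 231769 bases from CD47 on the other side, was at -0.28 in Combination (adjusted p = 0.0223) and -0.1 in JQ1 (adjusted p = 0.374). TOMM40, 1340 bases from NECTIN2, was at -0.66 in Combination, -1.19 in JQ1 and 0.54 in CAR. BCAM, on the other side of NECTIN2, was at -1.38, 0.31 and -0.78 in the same groups. LOXL1, 211470 bases from CD276, was at -2.42, -2.21 and -1.47, and NPTN on its other side at 0.62, 0.68 and -0.15.

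**Figure D5:**
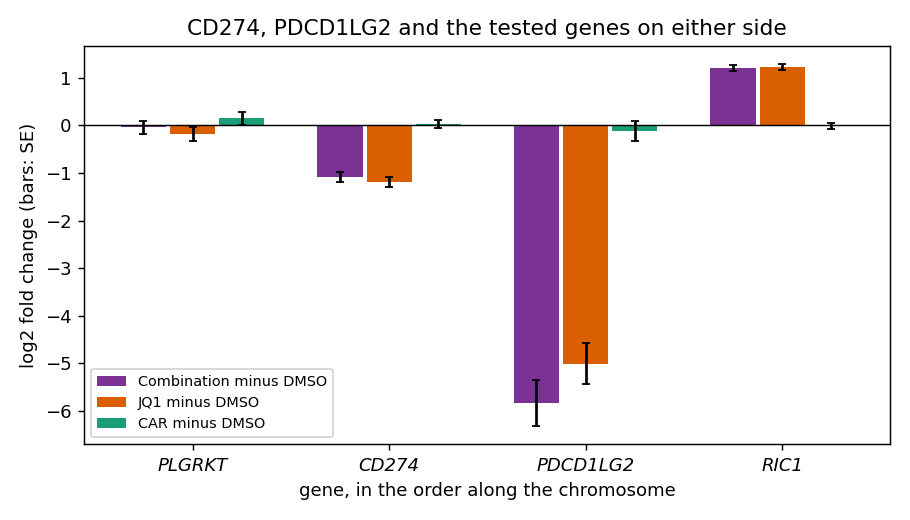
Log2 fold change against DMSO, with SE, of CD274, PDCD1LG2 and the tested gene on either side, in their order along chromosome 9. Bars stand for Combination, JQ1 and CAR; the PDCD1LG2 bars rest on 0 to 2 reads per library in the groups given JQ1. PLGRKT stays near 0 and RIC1 is above 0 in both groups given JQ1.

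The interferon gamma receptor, JAK, STAT and IRF list covers the pathway that induces CD274 and also its inhibitors SOCS1, SOCS3, PTPN2, PTPN11 and PIAS1. Of its 20 genes, 12 were higher and 5 lower in Combination, 11 higher and 6 lower in JQ1, and 1 higher and 9 lower in CAR, each against DMSO, with medians of 0.23, 0.2 and -0.14. Over all genes the shares called higher and lower were 42.6% and 42.8% in Combination, 41.5% and 42.2% in JQ1, and 27.3% and 30.1% in CAR. SOCS3, PTPN2, PTPN11 and PIAS1 were among the 12 higher in Combination. IRF1, a transcription factor of CD274 induction, fell to 17.7 ± 0.906 CPM in Combination and 16.6 ± 0.472 in JQ1, against 28.9 ± 1.43 in DMSO (adjusted p = 1.15e-09 and 1.49e-10). JAK2, the kinase at the receptor, did not pass in Combination (5.68 ± 0.0504 CPM) or JQ1 (7.1 ± 0.715), against 6.12 ± 0.687 in DMSO, and fell in CAR (4.2 ± 0.208 CPM, adjusted p = 0.00048). The receptor chains parted, with IFNGR1 at 62.4 ± 4.09 CPM in Combination and 58.7 ± 3.14 in JQ1 against 28.8 ± 1.05 in DMSO, and IFNGR2 at 22.1 ± 0.622 CPM in Combination and 26.1 ± 0.74 in JQ1 against 64.9 ± 1.19 in DMSO. CIITA, the activator of MHC class II genes, fell to 0.781 ± 0.0833 CPM in Combination and 0.594 ± 0.174 in JQ1, against 17.0 ± 2.33 in DMSO (adjusted p = 1.24e-16 and 6.79e-17).

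Of 23 other regulators of CD274 mRNA tested, 12 were higher and 9 lower in Combination and 9 were higher and 10 lower in JQ1, each against DMSO, and CAR had 8 higher and 4 lower. The counts for Combination and JQ1 lie near the shares over all genes (42.6% and 42.8%, 41.5% and 42.2%). For CAR, 27.3% of all genes were called higher and 30.1% lower. FOSL1, an AP-1 subunit, fell to 55.5 ± 3.72 CPM in Combination and 30.9 ± 2.01 in JQ1, against 323.3 ± 15 in DMSO, while CAR cells had 397.8 ± 10.7 CPM (log2 0.3, adjusted p = 9.4e-06). NFKB1 fell by 1.56 in Combination and by 1.3 in JQ1 on the log2 scale. EPAS1, which encodes HIF-2α, rose by 1.66 in Combination and 2.41 in JQ1. MYC, often lowered by BET inhibitors, had 157.3 ± 5.01 CPM in Combination, 126.4 ± 2.3 in JQ1, 166.2 ± 2.06 in CAR and 121.9 ± 0.227 in DMSO, and JQ1 alone did not pass the test (0.05, adjusted p = 0.198). CD44, a surface glycoprotein described as a regulator of CD274, had 620.4 ± 18.2 CPM in Combination and 595.9 ± 2.65 in JQ1, against 734.8 ± 29.4 in DMSO, a fall in both.

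Genes that act on PD-L1 as a protein were measured in full, 27 of 27, and include genes that stabilise it and genes that remove it. Against DMSO, 15 were higher and 9 lower in Combination, 16 and 10 in JQ1, and 10 and 6 in CAR, where 42.6% and 42.8%, 41.5% and 42.2%, and 27.3% and 30.1% of all genes were called. ZDHHC9, an enzyme that attaches palmitate to PD-L1, had 107.9 ± 3.85 CPM in Combination, 59.7 ± 2.74 in JQ1, 65.0 ± 1.96 in CAR and 45.5 ± 3.86 in DMSO, with its highest level in Combination. ADAM17, a protease that sheds PD-L1, followed the same order of Combination above CAR above JQ1 above DMSO, at 160.4 ± 2.7, 136.2 ± 2.18, 106.8 ± 4.87 and 82.7 ± 4.68 CPM. STT3A, which glycosylates it, had 337.7 ± 4.2 CPM in Combination and 278.9 ± 2.39 in JQ1, both below the 428.7 ± 16.5 of DMSO, and 576.6 ± 9.35 in CAR. HIP1R, which directs PD-L1 to lysosomes, rose by 0.94 in Combination and 0.82 in JQ1 on the log2 scale. None of these transcripts measures PD-L1 protein.

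Around NT5E, 11 of 16 adenosine genes were tested, and against DMSO 4 were higher and 7 lower in Combination and 4 higher and 5 lower in JQ1, while CAR had 3 higher and 4 lower. Over all genes 42.6% and 42.8%, 41.5% and 42.2%, and 27.3% and 30.1% were called in these comparisons. SLC29A1, the transporter that takes adenosine into cells, had 79.0 ± 2.67 CPM in Combination, 77.1 ± 1.78 in JQ1, 283.2 ± 2.34 in CAR and 297.4 ± 5.21 in DMSO. The adenosine receptor gene ADORA2B had 12.2 ± 1.15, 10.0 ± 0.691, 83.4 ± 0.403 and 65.1 ± 3.99 CPM in the same groups, a fall in both groups given JQ1 (adjusted p = 1.11e-18 and 3.19e-19) and a rise in CAR (0.36, adjusted p = 6e-06). ENPP1, an enzyme that makes AMP from ATP, had 99.4 ± 6.84 CPM in Combination, 91.2 ± 4.35 in JQ1, 46.2 ± 1.05 in CAR and 72.5 ± 3.48 in DMSO. ADK, which returns adenosine to AMP inside cells, rose to 107.0 ± 4.74 CPM in Combination and 88.0 ± 4.9 in JQ1, against 68.3 ± 2.71 in DMSO.

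Of 15 tested genes of the CD47 pathway and of phagocytosis, 8 were higher and 6 lower than DMSO in Combination and likewise in JQ1, and 3 were higher and 7 lower in CAR, beside shares of all genes of 42.6% and 42.8%, 41.5% and 42.2%, and 27.3% and 30.1%. QPCTL, which modifies CD47 so that SIRPα can bind it, had 31.0 ± 0.736 CPM in Combination, 22.7 ± 1.37 in JQ1, 21.3 ± 0.655 in CAR and 14.8 ± 1.66 in DMSO, called higher in all 3 (adjusted p = 8.55e-12, 1.47e-07 and 5.74e-06). THBS1, a secreted ligand of CD47, fell most in Combination, to 322.7 ± 2.28 CPM, with 562.4 ± 6.14 in JQ1, 659.3 ± 13.5 in CAR and 746.6 ± 87.6 in DMSO. CALR, a signal for engulfment when it reaches the surface, had 1106.8 ± 14.2 CPM in Combination, 1047.3 ± 2.7 in JQ1, 635.5 ± 6.46 in CAR and 794.1 ± 28.4 in DMSO. CD55 and CD59, which restrain complement, rose in both groups given JQ1, by 1.04 and 0.58 in Combination and by 1.29 and 0.97 in JQ1 on the log2 scale. HMGB1, ANXA1 and SIRPA fell in both, to log2 values of -2.53, -0.96 and -2.91 in Combination and -2.2, -1.03 and -3.57 in JQ1.

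By Pearson correlation of log2 CPM over the 12 libraries, the patterns most like a member's were close, but the libraries fall into 4 treatment groups and many genes share such a shape. NT5E was most like NUSAP1 (r = 0.9993), ABR (0.9989) and SLCO4A1 (0.9985), and PDCD1LG2 most like SASS6 (0.9966), IL27RA (0.9953) and PCLAF (0.995). CD274 was most like RBPMS2 (0.9904), COMTD1 (0.9891) and RTL6 (0.9884), with PDCD1LG2 at 0.962. CD47 had CAMK2D (0.9959), ENDOD1 (0.9935) and PDGFRB (0.993) nearest, PVR had DDX21 (0.9898), CAD (0.9876) and TIMM8A (0.9869), and CD276 had USF1 (0.9896), C1QTNF6 (0.9819) and KANK1 (0.9818). NECTIN2 (MANBAL, 0.9731), CMTM6 (ITGB1, 0.9509) and LGALS9 (FBXO9, 0.9341) had looser nearest patterns. Each was chosen out of 10749 or 10750 genes as the nearest, and the values are a description.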

How the data were processed

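The 12 libraries are poly(A)-selected RNA of MDA-MB-231 cells, made with a stranded mRNA kit per the labels' protocols. The authors deposited 1 table per library of raw whole-number counts of reads for each gene symbol. Trimmomatic, HISAT2, HTSeq and the build hg38 are named in the submitters' processing notes, without versions; the gene annotation is not given in the sources used here, and neither is any use of strand. Groups and replicate numbers were taken from the titles and treatment labels.

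Genes passing filterByExpr (minimum count 10, minimum total 15) were scaled by TMM and fitted over all 12 libraries with edgeR 4.0.16 in R 4.3.3 (robust quasi-likelihood, group means, 6 contrasts), with Benjamini-Hochberg adjustment over the genes tested and a threshold of 0.05. The biological coefficient of variation was 0.0408, on 8 residual degrees of freedom. Levels are CPM; reads of low genes were summed per group for an exact conditional 95% interval, which covers counting error only. Positions and lengths came from GENCODE v29, matched by symbol for 97.3% of genes. Fits were tested on simulated data. Alternatives were other scalings, filters, DESeq2 1.42.0, the groups of a contrast alone, a replicate block, a transcript length correction and each library left out.

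The 9 members and the lists of related genes were chosen with earlier results of these data known. Beside the members, genes were named by rule. In each list and contrast, these were up to 3 called genes with the smallest adjusted p. Up to 1 more came from the direction with fewer called genes in that list, whichever way the first 3 moved. Where both directions had equally many called genes, no such gene was added. The rule also gave the 3 genes most like each member among those of at least 5 CPM, and the nearest tested genes. JAK2, IRF1, MYC and CD44 were among a few fixed names. Some genes the rule gives are not reported here, and IFNGR1, CMTM4 and CMTM7 were chosen after their values were seen.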

Additional observations from a re-analysis of the deposited data

Results flagged for a closer look

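The effect of CAR differed with and without JQ1 for 5 of the 9 genes, by the test of the interaction itself. The interaction on the log2 scale was 0.57 for CD276, -0.19 for CD47, -0.39 for CMTM6, 0.17 for NT5E and -0.39 for PVR. CAR was accompanied by 1.28-fold more CD276 mRNA when JQ1 was present (Combination against JQ1) and by 1.16-fold less when it was absent (CAR against DMSO). For PVR, Combination against JQ1 did not pass the test (0.09, adjusted p = 0.0637), although it passed under 4 alternatives (adjusted p = 0.018 to 0.0438), while CAR was 1.4-fold above DMSO. CMTM6 was 1.33-fold lower in Combination than in JQ1 and differed by -0.02 between CAR and DMSO. CD47 and NT5E were lower with CAR in both settings, by 1.5-fold and 1.32-fold for CD47 and by 1.13-fold and 1.27-fold for NT5E. Across all genes, 20.1% had a positive and 18.2% a negative interaction that passed.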

How the results depend on the processing

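Of 1170 values of the 9 genes over the alternatives, 1128 kept their direction and their side of the threshold. With the direction kept, 17 lost and 11 gained a call. The other 14 changed sign, among them CD47 in Combination against DMSO with total counts, where the call was lost too. Total counts moved the median of all genes by -0.06, -0.12 and -0.21 (CAR, JQ1 and Combination against DMSO); CD274 in CAR became -0.03 and CD47 in Combination -0.05. With that scaling 4216 genes were higher and 6501 lower in Combination than in DMSO (5386 and 5415 with TMM), 2636 and 4738 in CAR (3449 and 3801), and 2229 and 4554 in Combination against JQ1 (3292 and 3275). NECTIN2 in Combination against DMSO was 0.06 with the length correction and 0.01 without DMSO replicate 3 and Combination replicate 1, which also left CMTM6 called lower there (-0.09, adjusted p = 0.047) and in Combination against CAR (-0.08, adjusted p = 0.0487). Leaving out single libraries gave ranges of 0 to 0.08 (CD274), -0.34 to 0.04 (PDCD1LG2) and -0.07 to 0.01 (CMTM6) for CAR against DMSO, 0 to 0.29 (CD274) and -0.48 to 0.78 (LGALS9) for Combination against JQ1, -0.08 to 0 (CMTM6) for Combination against CAR, and -0.04 to 0.25 (CD274) and 0 to 0.05 (NECTIN2) for the interaction, none of them called. NECTIN2 in Combination against DMSO ran from -0.05 to 0 and CD47 from 0.13 to 0.19. The number of the 9 genes with a called interaction ran from 3 to 5, with 3 without JQ1 replicate 2. The cause of these changes was not tested. Leaving out Combination replicate 1 alone changed no call of the 9 genes.

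Replicate numbers did not pair the samples: over 18 pairs of same-numbered libraries the correlation of deviations ran from -0.045 to 0.056, and 3 of 12 libraries correlated best with their own number. With the replicate number as a block, the counts of the 9 genes called were 7 in Combination, 9 in JQ1 and 6 in CAR against DMSO, 5 against JQ1, 7 against CAR and 5 for the interaction, and none of 54 calls changed. Depth limits LGALS9 and PDCD1LG2 in the groups given JQ1.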

Other observations

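Other ligands of the B7, nectin, galectin and TNF families, of which 19 of 29 were tested, moved in counts near the shares over all genes in Combination and JQ1 (42.6% higher and 42.8% lower, 41.5% and 42.2%): against DMSO, 9 were higher and 9 lower in Combination and 7 higher and 8 lower in JQ1, while CAR had 2 higher and 9 lower, where 27.3% and 30.1% of all genes were called. VSIR, which encodes the checkpoint VISTA, rose to 75.7 ± 2.03 CPM in Combination and 92.1 ± 4.69 in JQ1, against 15.7 ± 1.43 in DMSO, and fell to 9.52 ± 0.978 in CAR (adjusted p = 2.47e-18, 3.16e-19 and 4.71e-07). HLA-E, the ligand of the inhibitory receptor NKG2A, had 652.1 ± 7.98 CPM in Combination, 537.3 ± 10.7 in JQ1, 282.5 ± 8.45 in CAR and 255.3 ± 2.58 in DMSO. LGALS3, which encodes galectin-3, rose 2.24-fold in Combination. Among the genes that fell, TNFRSF14 was 3.3-fold lower in Combination and 5.71-fold lower in JQ1 than in DMSO. LGALS1 was 1.82-fold and 2.04-fold lower in the same comparisons, and BTN3A3 was 1.99-fold and 1.89-fold lower. TNFSF9, the gene of the costimulatory ligand 4-1BBL, had 10.1 ± 0.286 CPM in Combination, 2.33 ± 0.348 in JQ1, 1.77 ± 0.527 in CAR and 1.1 ± 0.123 in DMSO, an interaction of 1.42 on the log2 scale (adjusted p = 0.000487). Over this list 12 genes had a positive and 1 a negative interaction that passed, where 20.1% and 18.2% of all genes did.

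Receptors of lymphocytes were nearly absent: 2 of 13 listed genes were tested. LAG3 had 2.93 ± 0.328 CPM in Combination, 4.19 ± 0.205 in JQ1, 0.574 ± 0.214 in CAR and 1.52 ± 0.255 in DMSO, a rise in both groups given JQ1 (adjusted p = 0.000116 and 1.5e-07) and a fall in CAR (adjusted p = 0.000134), while PTPRC stayed at 0 or 1 read in every library. CD226, the other gene tested, had 0.411 ± 0.158 CPM in Combination, 0.836 ± 0.139 in JQ1, 0.582 ± 0.27 in CAR and 0.993 ± 0.186 in DMSO. It was called lower in Combination (adjusted p = 0.00319) and CAR (adjusted p = 0.049), and was not called in JQ1 (adjusted p = 0.457).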
